A study of Capra hircus with 6 samples.

Results

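Solute carriers (SLC) are membrane proteins that move nutrients, ions and metabolites across the plasma membrane and the membranes of organelles, and this account covers the circular RNAs made from their genes in goat back muscle. A host gene was taken when its name in the deposited tables was SLC followed by a digit. Entries listed under a gene number were added when they lay on the same chromosome and strand within the stretch spanned by that gene's own entries, with 1 base allowed. The rule took 323 named and 45 numbered entries, 368 of 25500 in all. After entries 1 base apart were added together these were 351 of 23983 circRNAs, from 116 of 6426 host genes. Of the 116, 115 are carriers of 35 SLC families. The other one, SLC4A1AP, encodes an adaptor protein that binds a carrier and is not itself a carrier; it gave a single read, in fetus 3.

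Circular RNAs (circRNAs) are closed loops formed when a splice donor is joined back to an upstream acceptor, and they are counted by the reads that cross this back-splice junction. The level of a host gene here is therefore the number of its circular junction reads, which is no measure of its mRNA or of the carrier protein. SLC carriers let their substrate run down its own gradient, couple it to a gradient of sodium, protons or other ions, or exchange it for another substrate. In skeletal muscle they supply glucose, amino acids and lactate exchange, keep intracellular pH and ion levels, and serve the mitochondria.

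The tissue was the longissimus dorsi, the long muscle along the spine, of Haimen goats. The kid group held 3 libraries from animals on day 1 after birth, and the fetus group 3 libraries from day 75 of gestation; no treatment or genotype is given for either. Total RNA had been depleted of ribosomal RNA and digested with RNase R, an exonuclease that removes linear RNA. The labels list 6 separate samples without saying that each is a separate animal, so the p-values measure only the spread between these libraries.

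Back-splice reads numbered 77111, 42695 and 73922 in the kid libraries, against 36484, 33222 and 56467 in fetus. After trimming, 84.01% to 87.92% of reads were kept in kid libraries, against 70.73% and 69.1% in fetus 1 and fetus 2 and 86.99% in fetus 3. Of 10 hosts that mark muscle fibres, 8 had reads at both stages and CKM only in kid, and their summed level was 20316 to 24845 CPM in kid and 11395 to 12093 CPM in fetus (CPM, the usual counts-per-million scale over a library's back-splice reads, with TMM factors; MYH3 was at 0). Of the 9 tested, 5 rose and 0 fell, beside 11.9% and 7.46% of all tested host genes (test and threshold below). Hosts that mark fibroblasts and tendon summed to 1025 to 1603 CPM in kid and 2401 to 3641 CPM in fetus, with 0 of 4 tested higher, 3 lower, and DCN and TNC at 0. Of those lower, COL12A1 and POSTN reached the read minimum (below) through fetus libraries alone, as CKM did through kid libraries alone. Of the untested, COL1A1 had 1, 11 and 2 reads in kid and 0, 4 and 1 in fetus, while COL1A2, COL3A1 and PDGFRA had fewer in kid. Markers of endothelium, blood, fat, nerve, immune cells and smooth muscle stayed at or below 277.9 CPM at both stages. The part of this shift in the SLC results was not tested, and in whole muscle fewer cells of a type and less RNA per cell cannot be told apart.

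SLC circRNAs made up 1.113%, 1.155% and 1.098% of the back-splice reads in the kid libraries and 0.973%, 1.044% and 1.048% in the fetus libraries. The stages did not overlap, with means of 1.122% ± 0.0293 in kid and 1.022% ± 0.0424 in fetus (SD, n = 3 each). Without the single gene SLC9A2, a sodium/proton exchanger, the shares were 0.9441%, 0.9744% and 0.9253% in kid and 0.9429%, 1.023% and 1.024% in fetus, and the stages overlapped. SLC9A2 alone gave 15.49% of the SLC reads in kid and 2.473% in fetus.

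The reads were spread unevenly. Of 3457 SLC reads, 2163 in kid and 1294 in fetus, the 10 hosts with the most reads held 48.71%. There were 11 hosts with at least 100 reads, 26 with 20 to 99, 52 with 2 to 19 and 27 with 1 read. All 6 libraries had reads of 28 hosts, while 24 hosts were seen only in kid and 24 only in fetus. The same counts were not made over all host genes. Most of those one-stage hosts had very few reads, and a host without reads may have been missed: 3 reads corresponded to 41.68 to 80.93 CPM in a kid library and to 48.03 to 83.38 CPM in a fetus library.

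Detection did not follow depth alone. The kid libraries showed 147, 89 and 136 SLC circRNAs and the fetus libraries 103, 97 and 160. Thinned to the 33222 reads of the smallest library, they showed 105.1, 81.9 and 101.2 in kid and 99.3, 97.0 and 127.5 in fetus, means over 20 draws. Fetus 3 had the most SLC circRNAs at equal depth and kid 2 the fewest, and the stages overlapped.

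In their make-up the SLC circRNAs lay near the other 23013 circRNAs of genes. They held a median of 4 exons, against 3 in the others, and exonic ones had a median length of 478.5 bases, against 451. They spanned a median of 9340 bases of genome, against 7964. Of the 351, 29 (8.262%) lay within an intron, against 10.92% of the others. Single-read circRNAs were 38.75% of the SLC set and 36.39% of the others, and 7.123% and 7.192% were seen in all 6 libraries.

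For the comparison of stages, a host needed at least 5 reads in at least 3 libraries. This left 32 of the 116, with 85.31% of the SLC reads; the other 84 were too shallow to test. With edgeR's quasi-likelihood test and Benjamini-Hochberg adjustment over all 1755 host genes tested, 5 SLC hosts rose in kid, 1 fell and 26 did not pass an adjusted p of 0.05. The 6 called are 18.75% of the 32, beside 19.3% of all tested host genes; 15.62% rose, beside 11.9%, and 3.125% fell, beside 7.46%. The share called was thus close to that of host genes at large. Kid and fetus libraries were fully separate in 12 of the 32, beside 37.2% of all tested host genes, and in each of the 6 called. The median log2 fold change (kid over fetus) of the 32 was 0.13, against 0.05 over all tested host genes. At an unadjusted p under 0.05 there were 10, a count that was not made over all host genes.

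**Figure D1:**
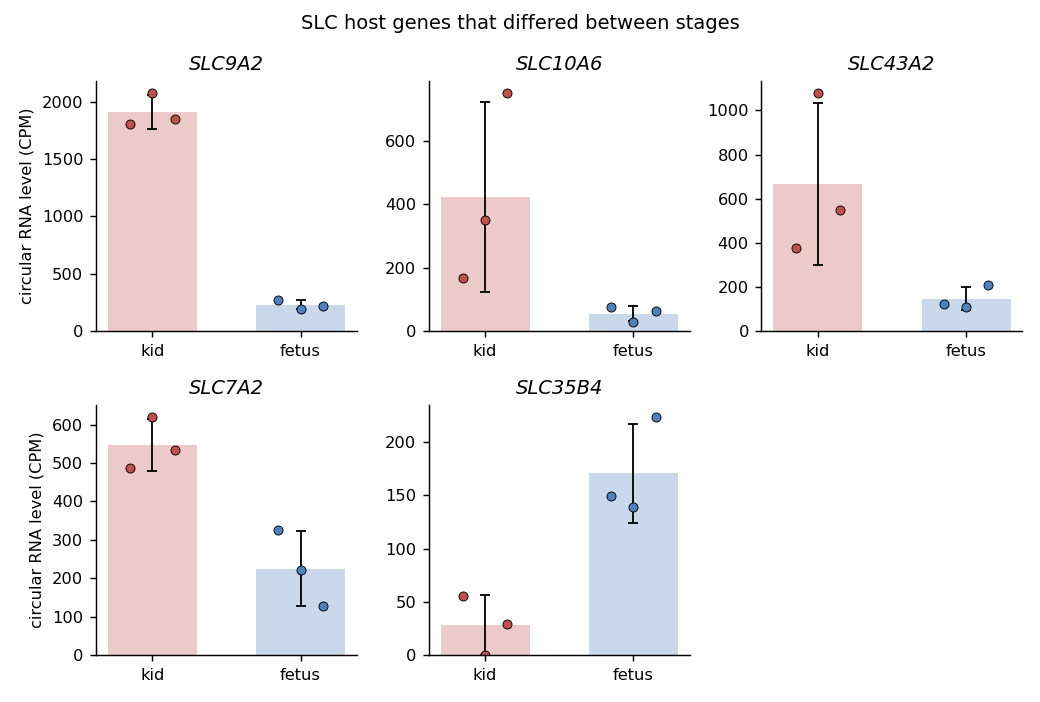
Level of circular RNA in CPM of 5 of the 6 SLC host genes that passed the test, in kid (red, left) and fetus (blue, right); points are libraries, bars the mean of 3 and whiskers the SD, with a separate axis for each gene. SLC9A2 stands at 1911 CPM in kid against 231 CPM in fetus, and SLC35B4 is the one gene with the lower level in kid.

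The exchangers of sodium, chloride, protons and bicarbonate set cell and organelle pH and cell volume. This group of 16 hosts summed to 2977 ± 194 CPM in kid and 1394 ± 226 CPM in fetus (SD, n = 3 each), and 6 members were tested, of which 2 rose, 0 fell and 4 missed the threshold. Without SLC9A2 the other hosts summed to 1320, 971.1 and 909.7 CPM in kid and 1297, 944.9 and 1249 CPM in fetus, and the stages overlapped. SLC9A2, which encodes the plasma membrane sodium/proton exchanger NHE2, best known from epithelia, had the highest level of the SLC hosts in kid, but not in fetus, where SLC30A7 and several others were higher. It gave 130, 77 and 128 reads in the kid libraries and 11, 7 and 14 in the fetus libraries. Every kid library lay far above every fetus library. Its level was 1911 ± 146 CPM in kid and 231 ± 40.3 CPM in fetus, an 8.17-fold rise (log2 3.03 ± 0.29 SE; adjusted p = 2.55e-07, edgeR). It passed in each of the 6 fits that left out a library and in the other 10 settings tried.

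Most of this came from one loop. The circRNA at chromosome 11, positions 7260854 to 7261056 on the plus strand, is a single exon of 203 bases (positions are those of the files, and the sources used here name no genome build). It held 84.78% of the SLC9A2 reads in kid and 68.75% in fetus, with 107, 69 and 108 reads in kid and 9, 5 and 8 in fetus. The stages did not overlap, and it rose by a log2 of 3.28 ± 0.30 (adjusted p = 4.43e-05, over 1960 circRNAs). The other 6 SLC9A2 circRNAs gave 23, 8 and 20 reads in kid and 2, 2 and 6 in fetus together. Of these, another single-exon loop of 464 bases near the left end of the SLC9A2 entries was deep enough to test, with 5, 5 and 7 reads in kid and 2, 0 and 2 in fetus (log2 1.67 ± 0.99; adjusted p = 0.288). The loop of 464 bases reached the read minimum through the kid libraries alone. The test for unequal change between both SLC9A2 loops, which includes it, gave an adjusted p of 0.433 (edgeR diffSpliceDGE).

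Another 4 did not pass, 3 of which follow. SLC4A4, the electrogenic sodium bicarbonate cotransporter NBCe1, gave 14, 3 and 6 reads in kid and 11, 11 and 21 in fetus (log2 -1.28 ± 0.52; adjusted p = 0.0885). Its CPM did not overlap between the stages and it passed only without TMM factors (adjusted p = 0.0425). SLC12A2, the sodium-potassium-chloride cotransporter NKCC1, had 25, 8 and 17 reads in kid and 18, 4 and 18 in fetus. SLC4A7, another sodium bicarbonate cotransporter, had 26, 8 and 19 in kid and 11, 12 and 15 in fetus. For both, the libraries of the stages overlapped and the log2 fold change was near 0 and changed sign between settings (-0.06 ± 0.47 for SLC12A2 and 0.05 ± 0.42 for SLC4A7). SLC9A9, the endosomal exchanger NHE9, was seen only in fetus, with 5, 0 and 2 reads. It was at least 3.00-fold lower in kid with 3 reads put in for kid as a whole as the floor, and 1.21-fold without fetus 1. Such bounds take the reads of the other stage as counted, without their counting error.

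Carriers of amino acids, peptides and neurotransmitters formed the group with the most hosts, 24. They summed to 2793 ± 828 CPM in kid and 1724 ± 263 CPM in fetus, and of 7 tested 2 rose, 0 fell and 5 did not pass. Both that rose carry amino acids across the plasma membrane. SLC43A2, which encodes LAT4, a sodium-independent carrier of branched-chain amino acids and phenylalanine, gave 27, 40 and 38 reads in kid and 5, 4 and 13 in fetus. No library overlapped, and kid 2 was the highest in CPM. Its level was 668 ± 367 CPM in kid and 148 ± 52.5 CPM in fetus, 4.11-fold higher (log2 2.04 ± 0.46; adjusted p = 0.00382). It passed in all 6 fits that left out a library.

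Its main loop joins 3 exons, 341 bases in all, at chromosome 19, positions 22518126 to 22521341 on the minus strand. It held 20, 40 and 37 reads in kid and 5, 4 and 12 in fetus, 92.38% and 95.45% of the SLC43A2 reads. It rose by a log2 of 1.97 ± 0.52 (adjusted p = 0.0229), and the call was lost without kid 2, fetus 1 or fetus 2 (adjusted p up to 0.11) and when entries 1 base apart were kept separate (0.0808).

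SLC7A2 encodes CAT2, a carrier of arginine, lysine and ornithine. It gave 35, 23 and 37 reads in kid and 13, 8 and 8 in fetus. All kid libraries lay above all fetus libraries, at 547 ± 68.0 CPM in kid and 225 ± 98.1 CPM in fetus, 2.48-fold higher (log2 1.31 ± 0.41; adjusted p = 0.0295). This call was fragile: it was lost without kid 2, kid 3, fetus 2 or fetus 3 (adjusted p up to 0.158) and with DESeq2 (0.101). Its 11 circRNAs were led by a loop of 3 exons and 476 bases with 20, 19 and 28 reads in kid and 10, 7 and 4 in fetus, which did not pass on its own (log2 1.24 ± 0.50; adjusted p = 0.117). A loop of 5 exons ending at the same place, position 25828831 of chromosome 27, had 7, 3 and 4 reads in kid and none in fetus, at least 3.56-fold higher in kid; it was chosen after its values were seen.

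SLC15A4, a proton-coupled carrier of histidine and peptides in lysosomes, had the most reads of this group over both stages together, though SLC43A2 had more in kid and SLC38A6 more in fetus: 32, 40 and 19 in kid and 13, 20 and 20 in fetus. The libraries overlapped (log2 0.53 ± 0.44; adjusted p = 0.445), and its value without kid 2 was a log2 of -0.12. SLC38A9, the lysosomal carrier through which the growth regulator mTORC1 senses arginine, had 21, 11 and 13 reads in kid and 5, 5 and 8 in fetus. Its CPM was higher in each kid library than in each fetus library, but it did not pass (log2 0.96 ± 0.52; adjusted p = 0.211). Among its 14 circRNAs was an intronic one of 3924 bases with 4 reads in each kid library and none in fetus, at least 3.05-fold higher in kid. Without the intronic circRNAs the adjusted p of SLC38A9 was 0.601, and with host names as the files give them its log2 was 0.10 (adjusted p = 0.956).

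SLC38A6, a relative of the glutamine carriers, had 18, 8 and 19 reads in kid and 15, 19 and 35 in fetus, and 15 different circRNAs, the most of any host named here. All fetus libraries were higher in CPM, at 247 ± 29.4 CPM in kid and 488 ± 99.6 CPM in fetus, but the difference did not pass (log2 -0.97 ± 0.38; adjusted p = 0.0797). It passed without TMM factors (adjusted p = 0.0282). With host names as the files give them, which leaves its numbered entries out, it passed with a log2 of -2.78 (adjusted p = 0.0198). A loop of 3 exons and 365 bases had 0 reads in kid and 3, 5 and 5 in fetus, at least 5.69-fold lower in kid. The loop with the most SLC38A6 reads, of 3 exons and 167 bases, had 8, 6 and 2 reads in kid and 5, 5 and 13 in fetus and did not pass (log2 -0.80 ± 0.64; adjusted p = 0.436).

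**Figure D2:**
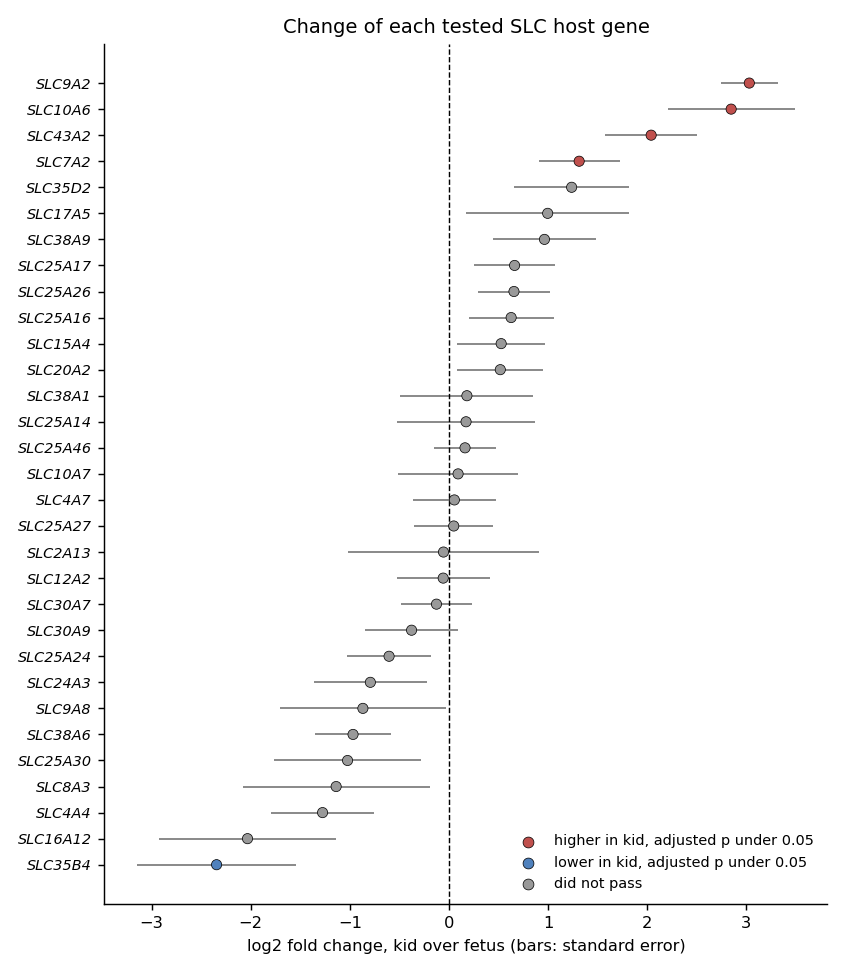
Log2 fold change of kid over fetus for the tested SLC host genes, 1 left out, with bars for the standard error; red marks 4 of the 5 that rose, blue the 1 that fell and grey the 26 that did not pass. SLC9A2 has the largest value and one of the smallest errors, while SLC35B4 and SLC16A12 lie at the low end with wide errors.

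Mitochondrial carriers (family SLC25) move metabolites, nucleotides and cofactors across the inner membrane. With 26.84% of all SLC reads this was the largest group by level, 3060 ± 274 CPM in kid and 2759 ± 413 CPM in fetus over 19 hosts. Of 8 tested hosts 0 rose and 0 fell by edgeR or DESeq2, and none had an unadjusted p under 0.05. The highest, SLC25A46, encodes an unusual member of the family that sits in the outer membrane and takes part in mitochondrial fission. It gave 58, 34 and 40 reads in kid and 22, 35 and 34 in fetus, nearly all from 1 loop of 4 exons and 280 bases on chromosome 7 (934615 to 939167, minus strand). The libraries overlapped (log2 0.16 ± 0.31; adjusted p = 0.77).

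SLC25A17, a family member found in peroxisomes, where it carries coenzyme A and related cofactors, made a single circRNA, of 3 exons and 280 bases. It gave 32, 26 and 21 reads in kid and 12, 13 and 15 in fetus (log2 0.66 ± 0.41; adjusted p = 0.285). SLC25A24, which exchanges ATP-magnesium for phosphate, gave 32, 4 and 23 reads in kid and 15, 20 and 31 in fetus (log2 -0.60 ± 0.42; adjusted p = 0.355). For both hosts the difference did not exceed the spread between libraries, and kid 2 was the lowest library of SLC25A24.

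SLC25A26 stood out in the balance of its loops. It encodes the carrier that brings S-adenosylmethionine, the methyl donor, into mitochondria. Summed over its 4 circRNAs it gave 35, 14 and 39 reads in kid and 11, 10 and 22 in fetus, and did not pass (log2 0.66 ± 0.37; adjusted p = 0.229). Its main pair of loops share the end at position 35183447 of chromosome 22, minus strand. The shorter runs to 35204442 and joins 3 exons, 263 bases in all. The longer runs 3512 bases further, to 35207954, and holds 1 more exon, 420 bases in all.

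The shorter SLC25A26 loop had 14, 14 and 14 reads in kid and 1, 0 and 0 in fetus. The longer had 21, 0 and 21 reads in kid and 10, 10 and 17 in fetus. The shorter was thus present in every kid library and almost absent from fetus, while the longer was at like levels at both stages except in kid 2, which had none. The shorter rose by a log2 of 4.66 ± 0.91 (adjusted p = 0.00567), and its pooled CPM ratio was 32, with an exact 95% interval of 5.44 to 1294 that covers counting error only. It passed in each of the 3 fits that left out a fetus library, with log2 values of 3.95 without fetus 3 to 6.74 without fetus 1; without a kid library it did not reach the read minimum. The longer did not pass (log2 -0.32 ± 0.65; adjusted p = 0.805).

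As a share of both loops, the shorter made up 40%, 100% and 40% in kid and 9.09%, 0% and 0% in fetus. SLC25A26 was the 1 of 6 SLC hosts tested for unequal change among circRNAs that passed (adjusted p = 0.0161, edgeR diffSpliceDGE, over 376 host genes), beside 7.98% of all host genes tested. The call was lost without fetus 2 or fetus 3 (adjusted p up to 0.103) and could not be made without a kid library, since the shorter loop then fell below the read minimum. It was also lost when the counts were scaled to valid reads (0.0514). The gene LRIG1 overlaps SLC25A26 in the gene table, as other genes do SLC10A6, SLC35B4, SLC38A6, SLC20A2 and SLC35A1. The library marks strand, per the labels; whether the counting used it is not stated.

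**Figure D3:**
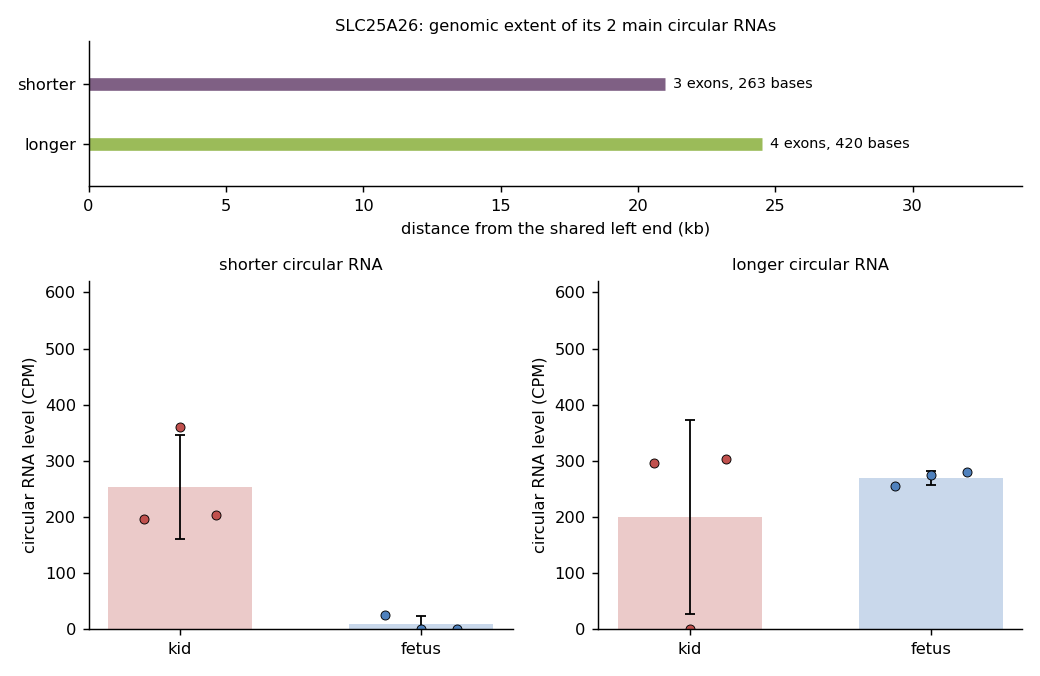
Top, genomic extent in kb of the main pair of SLC25A26 circular RNAs, drawn to scale from their shared left end; bottom, their level in CPM in kid (red, left) and fetus (blue, right), with points for libraries, bars for the mean of 3 and whiskers for the SD. The shorter loop is near 0 in fetus, and the longer one is at 0 in kid 2 only.

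Other SLC25 hosts have pairs of this kind that did not pass the test of unequal change. SLC25A27, known as UCP4, has 2 loops that share the end at position 28983428 of chromosome 23. The 3-exon loop had 10, 5 and 5 reads in kid and 2, 0 and 5 in fetus, and the 4-exon loop 11, 6 and 16 in kid and 8, 9 and 13 in fetus (unequal change, adjusted p = 0.41). SLC25A16 has a 3-exon loop with 10, 8 and 13 reads in kid and 1, 2 and 10 in fetus, and a 4-exon loop with 13, 8 and 9 in kid and 3, 5 and 16 in fetus (adjusted p = 0.576). The leading SLC25A16 loop differed between stages, the 3-exon loop with 41.89% of the reads in kid and the 4-exon loop with 60% in fetus. Neither test shows that the balance stayed the same. Over the 22 SLC hosts with at least 15 reads at each stage, the same loop led at both stages in 17, and in 12 it held over 50% of the host's reads at both.

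Carriers of nucleosides and nucleotide sugars feed glycosylation in the Golgi and endoplasmic reticulum. The 15 hosts summed to 584 ± 257 CPM in kid and 664 ± 106 CPM in fetus, and of 2 tested 0 rose, 1 fell and 1 did not pass. SLC35B4, which carries UDP-xylose and UDP-N-acetylglucosamine, gave 4, 0 and 2 reads in kid and 6, 5 and 14 in fetus. Kid libraries were below all fetus libraries, at 28.2 ± 27.8 CPM in kid and 171 ± 46.4 CPM in fetus, 5.08-fold lower (log2 -2.34 ± 0.80; adjusted p = 0.0447). The call rests on few reads: it was lost without kid 2 or kid 3 (adjusted p up to 0.096), with DESeq2 (0.1) and without the filter on low counts (0.129), and without kid 1 the log2 was -3.08. SLC35B4 reached the read minimum through the fetus libraries alone, so no fit without a fetus library could be made. Its leading loop, of 6 exons, had 4, 0 and 2 reads in kid and 4, 3 and 9 in fetus, and its other 3 circRNAs had none in kid.

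SLC35D2, a Golgi carrier of UDP-N-acetylglucosamine, did not pass. It gave 25, 5 and 16 reads in kid and 5, 4 and 5 in fetus (log2 1.24 ± 0.58; adjusted p = 0.143), and kid 2 and fetus 1 lay close in CPM. SLC35A1, the carrier of CMP-sialic acid, had 5 reads, all in kid 3; its bound of 1.29-fold higher in kid fell under 1 without any 1 fetus library, so that no direction is given.

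Of the 5 hosts for fatty acids, lipids and bile acids, 2 were tested, of which 1 rose and 0 fell. SLC10A6, also called SOAT, is a sodium-dependent carrier of sulphated steroids. It gave 12, 13 and 52 reads in kid and 3, 1 and 4 in fetus. The stages did not overlap, but kid 3 held most of the reads, so the level in kid was 423 ± 299 CPM, against 55.5 ± 24.6 CPM in fetus, 7.19-fold higher (log2 2.85 ± 0.64; adjusted p = 0.00342). It passed in the 3 fits that left out a fetus library; without a kid library it did not reach the read minimum. Nearly all its reads came from a loop of 3 exons and 384 bases at chromosome 6, positions 102177481 to 102182472 on the minus strand. With 11, 13 and 52 reads in kid and 3, 0 and 3 in fetus it rose by a log2 of 3.19 ± 0.78 (adjusted p = 0.0156), a call lost without any 1 of the fetus libraries (adjusted p of 0.0511 to 0.0746). SLC10A7, a relative not known to carry bile acids, had 7, 4 and 16 reads in kid and 8, 4 and 7 in fetus and did not pass (log2 0.09 ± 0.61).

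In all, 27 SLC circRNAs of 21 hosts were tested, and 4 rose and 0 fell (14.81%, beside 15.2% of all circRNAs tested; 9.23% of all rose and 5.92% fell). The 4 were the loops of SLC9A2, SLC25A26, SLC10A6 and SLC43A2 described above. DESeq2 also called 0 lower. At an unadjusted p under 0.05 in edgeR, 5 were higher and 0 lower, a count that was not made over all circRNAs.

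Metal carriers, 8 hosts, summed to 1063 ± 249 CPM in kid and 1249 ± 356 CPM in fetus, and of 2 tested 0 rose and 0 fell by edgeR or DESeq2, with unadjusted p over 0.05 for both. SLC30A7, the zinc carrier ZnT7 of the Golgi, gave 41, 21 and 56 reads in kid and 31, 40 and 21 in fetus, the highest level of the SLC hosts in fetus. The libraries were mixed, with fetus 2 the highest and fetus 3 the lowest in CPM (log2 -0.13 ± 0.36; adjusted p = 0.85). Its main loop, of 3 exons and 331 bases at chromosome 3, positions 78123006 to 78130924, had 29, 14 and 43 reads in kid and 28, 28 and 15 in fetus. SLC30A9, a zinc carrier of mitochondria, had 9, 16 and 15 reads in kid and 14, 9 and 21 in fetus (log2 -0.38 ± 0.47), with libraries that overlapped.

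Calcium exchangers trade calcium for sodium across the membrane. Of 4 hosts, at 249.7 ± 66.6 CPM in kid and 407 ± 156 CPM in fetus, 2 were tested and 0 rose or fell by edgeR or DESeq2, with unadjusted p over 0.05 for both. SLC24A3, a potassium-dependent exchanger, gave 11, 3 and 8 reads in kid and 9, 10 and 9 in fetus (log2 -0.79 ± 0.57; adjusted p = 0.371). SLC8A3, the sodium/calcium exchanger NCX3 found in skeletal muscle and brain, had 0, 7 and 2 reads in kid and 3, 6 and 9 in fetus within its span, all from a single exon of 1846 bases (log2 -1.14 ± 0.94). Both overlapped between stages. A further 3 numbered SLC8A3 entries outside the span had 5, 2 and 7 reads in kid and none in fetus, and with them, an alternative chosen after seeing the data, the log2 was 0.10 ± 0.65 (adjusted p = 0.942, edgeR), so the direction of SLC8A3 depends on whether they are counted. SLC8A1, the heart exchanger NCX1, whose large exon is a well-known circular RNA in other species, had 3, 2 and 6 reads in kid and 1, 5 and 0 in fetus, too few to test. Of these, a single-exon loop of 1835 bases gave 0, 2 and 5 in kid and 0, 4 and 0 in fetus. SLC8A1 is named for that background, after its values were seen.

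Of the 7 hosts for monocarboxylates and other organic acids, at 185.6 ± 43.8 CPM in kid and 315 ± 118 CPM in fetus, 1 was tested. SLC16A12, which carries creatine, gave 1, 0 and 5 reads in kid and 4, 5 and 11 in fetus. It lay lower in every kid library, but did not pass (log2 -2.03 ± 0.90; adjusted p = 0.118). SLC16A10, a carrier of aromatic amino acids and thyroid hormone, had more reads, 10, 3 and 2 in kid and 3, 1 and 15 in fetus, but reached 5 in too few libraries to be tested. Of its 19 fetus reads, 15 were in fetus 3.

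Sugar carriers had the lowest summed level of the groups in fetus, with 196.4 ± 147 CPM in kid and 86.7 ± 57.6 CPM in fetus over 6 hosts. SLC2A13, a proton-coupled carrier of myo-inositol, was the 1 tested, with 6, 4 and 2 reads in kid and 0, 5 and 5 in fetus (log2 -0.06 ± 0.96; adjusted p = 0.979). Its libraries overlapped, and no difference was detectable at this depth. SLC20A2, the phosphate carrier PiT2 and 1 of 2 hosts for phosphate, gave 28, 8 and 23 reads in kid and 11, 6 and 14 in fetus (log2 0.52 ± 0.44; adjusted p = 0.449).

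The 9 hosts for organic ions, vitamins, choline and polyamines summed to 310.5 ± 31.7 CPM in kid and 273 ± 95.0 CPM in fetus, and none had enough reads to test. SLC22A16, a carnitine carrier, was seen only in kid, with 2, 7 and 10 reads. It was at least 4.92-fold higher in kid with the same floor for fetus; leaving out 1 library gave bounds of 2.70 (without fetus 3) to 7.38 (without kid 1). SLC22A23, a family member without a settled substrate, had 11, 3 and 5 reads in kid and 0, 0 and 1 in fetus. SLC44A2, a choline carrier-like protein, had 0 reads in kid and 5, 0 and 2 in fetus, at least 3.00-fold lower in kid and 1.21-fold without fetus 1. All of these hosts are shallow, and the stage with few or no reads lay at or under the floor.

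**Figure D4:**
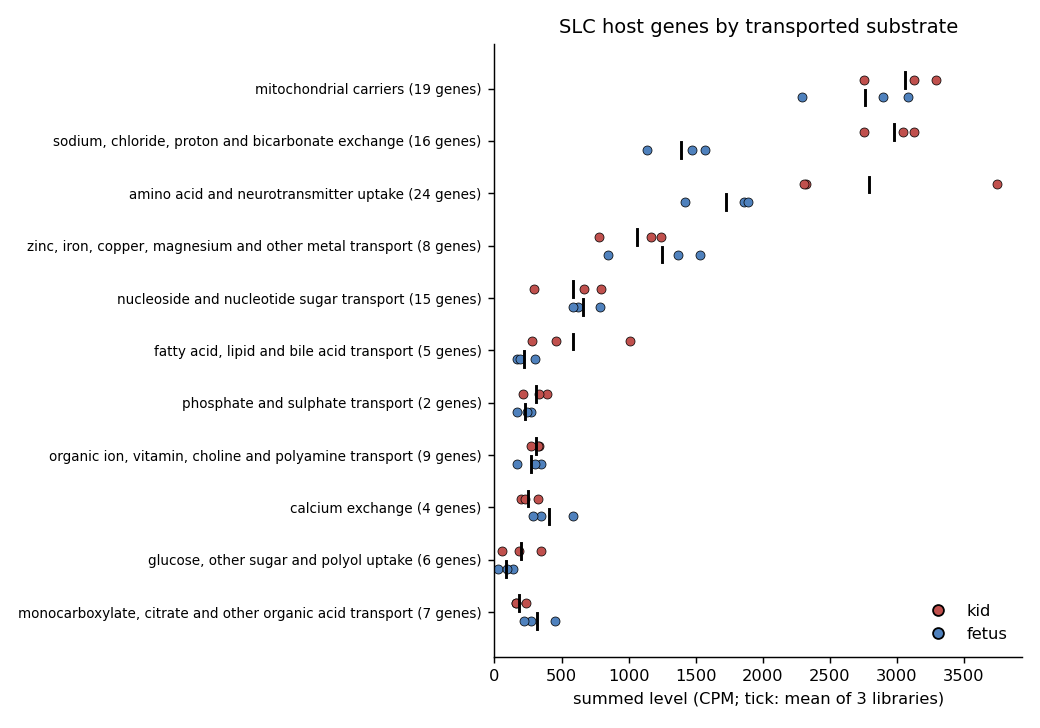
Summed circular RNA level in CPM of the SLC hosts of each substrate group, in kid (red, upper row) and fetus (blue, lower row); points are libraries and ticks the mean of 3. The exchangers of sodium, chloride, protons and bicarbonate lie apart in kid (2977 ± 194 CPM) and fetus (1394 ± 226 CPM) through SLC9A2, without which they sum to 1067 ± 221 CPM in kid and 1163 ± 191 CPM in fetus and overlap, while the mitochondrial carriers overlap.

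Across all 116 hosts, 10 circRNAs had at least 10 reads and were seen at 1 stage only, 8 in kid and 2 in fetus. Among them were those of SLC7A2, SLC38A6, SLC38A9 and SLC22A16 described above, and loops of SLC22A23, SLC25A24, SLC6A6 and, in fetus, SLC35F5. None reached the read minimum of the test. The same count was not made over all circRNAs, and SLC reads numbered 2163 in kid and 1294 in fetus. The split is therefore not read as a trait of SLC loops. The SLC35F5 loop had 0 reads in kid and 3, 3 and 6 in fetus, at least 5.25-fold lower in kid. The SLC25A24 loop, of 2 exons and 200 bases, had 5, 2 and 6 reads in kid and none in fetus, at least 3.30-fold higher in kid, while the 2 tested SLC25A24 loops did not pass.

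The authors' deposited table marked 15 of the 368 SLC entries as different, 12 higher in kid and 3 higher in fetus. This is 4.08% of them, beside 3.26% of all entries in the authors' deposited table. In that table the log2 fold change runs fetus over kid, and it was -3.24 for the SLC9A2 loop and -4.75 for the shorter SLC25A26 loop. Its marks went by p, with q-values up to 0.5999 in the authors' deposited table, and so include entries with few reads.

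Lists of other transport genes were set beside the SLC hosts; their counts stand beside 11.9% higher and 7.46% lower over all tested host genes. Of 52 listed carriers of SLC type with other names, 17 had reads and 6 were tested, of which 0 rose and 1 fell, OCA2, a melanosome carrier (log2 -1.06 ± 0.35; adjusted p = 0.0378, lost in 4 of the 6 fits without a library). Of 45 ABC transporters, 19 had reads, and of 6 tested 2 rose. These were ABCA1, which exports cholesterol (log2 1.88 ± 0.50; adjusted p = 0.012), and ABCC9, a subunit of the ATP-sensitive potassium channel of muscle (log2 0.74 ± 0.25; adjusted p = 0.0444). The ABCA1 call was lost without kid 3, fetus 1 or fetus 3 (adjusted p up to 0.119), and ABCC9 passed in 1 of 6 such fits.

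Of 36 P-type ATPases, 20 had reads, and of 10 tested 2 rose. ATP2A1, the calcium pump of fast muscle fibres, gave 179, 159 and 161 reads in kid and 29, 39 and 53 in fetus (log2 1.77 ± 0.26; adjusted p = 8.52e-05). It is also 1 of the 10 muscle fibre markers above. ATP8A1, a phospholipid flippase, had 13, 8 and 13 reads in kid and 1, 0 and 0 in fetus (adjusted p = 0.0043; pooled CPM ratio 26.4, interval 4.43 to 1074). ATP8A1 reached the read minimum through the kid libraries alone, and passed in the 3 fits that left out a fetus library.

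Of 39 listed partners and regulators of SLC carriers, 23 had reads, and of 9 tested 0 rose and 3 fell. A pair of these belong to the kinase chain that controls the chloride cotransporters of family SLC12. WNK3, its upstream kinase, gave 1, 0 and 1 reads in kid and 12, 12 and 25 in fetus (adjusted p = 1.43e-04; pooled CPM ratio 0.0317, interval 0.00374 to 0.121). WNK3 reached the read minimum through the fetus libraries alone, and passed in the 3 fits that left out a kid library. STK39, the kinase SPAK that WNK kinases activate, gave 8, 9 and 19 reads in kid and 25, 30 and 38 in fetus (log2 -1.73 ± 0.39; adjusted p = 0.00394). For both, every kid library lay below every fetus library. WNK1, another kinase of the chain, went the other way, with 35, 20 and 29 reads in kid and 8, 11 and 20 in fetus. It did not pass (log2 0.78 ± 0.38, adjusted p = 0.162, edgeR). WNK2, WNK4 and OXSR1 had too few reads to test. The third host that fell was TBC1D4, which holds back the glucose carrier GLUT4 (log2 -1.40 ± 0.46, adjusted p = 0.0381, edgeR). Its call was lost in each of the 6 fits without a library.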

How the data were processed

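Per the file headers, the authors deposited 2 tables with the count of back-splice reads of each circRNA in each library, a quality table with counts of reads and the percent kept, and a comparison of fetus over kid with log2 fold changes, p-values and q-values. The deposited tables also hold exon numbers and lengths. Per the submitters' processing notes, cutadapt, FastQC and TopHat were used; their versions, the circRNA caller, build and annotation, and whether starts count from 0 or 1, are not given in the sources at hand. Per the labels, the libraries are strand-marked (dUTP) and PCR-amplified, with paired reads of 150 bases. The read counts used were those of the back-splice table; 0 SLC entries differed in the other table. Another 18 columns of values per library were not used.

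The 17 SLC pairs of entries with starts 1 base apart and the same end were added together. Over all 1503 such pairs, both entries had reads in 65 pair-by-library cells and 1 entry in 5835. Host genes known only by number (4563 entries) were named from the RefSeq gene table. A further 19 numbered entries of SLC genes (106 reads) lay outside the spans and stayed out. circRNAs that give no single host gene enter library totals and were open to the test of circRNAs, but enter no host gene's level.

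The test was edgeR's quasi-likelihood F test (version 4.0.16, R 4.3.3, robust fit) of kid minus fetus. Library sizes were all back-splice reads of a library, with TMM factors. Features needed at least 5 reads in at least 3 libraries, and p-values were adjusted by Benjamini-Hochberg over all features tested. SE is the absolute log2 fold change over the square root of F. DESeq2 1.42.0 was an alternative. On simulated data with a log2 change of 1, the host gene test over 1755 genes recovered 16.1%, and with 2 80.4%; over 1960 circRNAs these were 14.3% and 67.5%. Folds against a stage with 0 reads are bounds, from CPM pooled per stage with 3 reads put in for that stage. Against 1 to 3 reads, the pooled CPM ratio stands with its exact 95% interval. The bounds allow for no counting error in the stage with reads. The interval covers counting error only, as PCR copies are not independent molecules. Figures and summaries used Python 3.11.15.

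Named are hosts and circRNAs that passed, the 10 hosts and 5 circRNAs with the highest mean CPM, the host with the most reads in each of 11 substrate groups, the 5 hosts with the smallest p that did not pass, one-stage hosts with at least 5 reads, and list members that passed (at most 2 a direction). TBC1D4, the other WNK chain members that did not fall and further tested or one-stage hosts described for their group were named after their values were seen. The members, lists and rules were chosen with earlier results of these data known. One host gene that passed is counted in the totals and is not reported here.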

Additional observations from a re-analysis of the deposited data

How the results depend on the processing

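The 6 SLC host genes called (5 higher, 1 lower) became 3 (3 higher, 0 lower) with DESeq2 and likewise when scaled to valid reads, 6 (3 higher, 3 lower) without TMM factors, 6 (6 higher, 0 lower) without the filter, 5 (0 lower) with exonic circRNAs only, 4 (3 higher, 1 lower) with host names as in the files and 1 (1 higher, 0 lower) with fetus 3 alone. Without TMM factors the median log2 fold change of all host genes was -0.21, against 0.05. Over all host genes the calls moved too, from 339 of 1755 to 230 with DESeq2 and 199 when scaled to valid reads. They were 340 of 1755 without TMM factors, 305 of 6426 without the filter and 319 of 1650 with exonic circRNAs only. With host names as in the files they were 240 of 1840. Fits without 1 library called 2 to 4 SLC hosts, with 2 to 4 higher and 0 to 1 lower. Over all host genes these fits called 180 to 245. Libraries with the same replicate number did not deviate together (correlations 0.01, 0.03 and -0.04), and those with other numbers gave -0.06 to 0.05. With counts this low, that cannot show that the numbers carry no pairing. With the number as a block 4 SLC hosts were called (4 higher, 0 lower), beside 311 of 1755 host genes. The 4 circRNAs became 1 with fetus 3 alone, 3 with entries 1 base apart kept separate (the SLC43A2 loop lost) and 1 to 3 without 1 library. The 1 host with unequal change became 0 when scaled to valid reads, with names as in the files and with fetus 3 alone, and 0 to 1 without 1 library. With names as in the files the SLC share was 1.02% in kid and 0.927% in fetus. In all, 49 of these summary values moved and 73 did not. The cause of these changes was not tested, except that some features reached the read minimum through the libraries of a single stage. A fit without a kid library leaves the host SLC10A6, its main loop and the shorter SLC25A26 loop below the read minimum. A fit without a fetus library likewise leaves SLC35B4 below it.

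Hosts that did not pass changed sign as follows. SLC15A4 ranged from -0.12 (without kid 2) to 0.87 in fits without 1 library. SLC25A46 was -0.10 without TMM and -0.054 to 0.40 without 1 library, and its loop -0.066 and -0.020 to 0.36. SLC2A13 was 0.081 with the block and -0.64 to 0.35 without 1 library. SLC30A7 was 0.91 with fetus 3 alone and -0.58 to 0.22 without 1 library, and its loop 0.83 with fetus 3 alone. SLC10A7 was -0.16 without TMM, -0.52 with names as in the files and -0.45 to 0.36 without 1 library, SLC12A2 0.020 with names as in the files and -0.46 to 0.32 without 1 library, and SLC4A7 -0.015 with DESeq2, -0.20 without TMM and -0.15 to 0.19 without 1 library. With fetus 3 alone a lone library is assumed to vary like the others, and SLC9A2 was the 1 SLC host still called (adjusted p = 0.00417). Joining the 19 numbered entries outside the spans, an alternative chosen after seeing the data, left the counts of calls as reported and moved SLC8A3 to 0.095. Depth limits the rest, since 84 SLC hosts had too few reads to test.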
